A study of Mus musculus with 10 samples.

Results

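Of the 55401 genes in the deposited count table, 51 belong to the tumor necrosis factor (TNF) superfamily and the core of the NF-κB pathway. They were chosen by symbol, with earlier results of these data known. The list holds every gene whose symbol begins with Tnfsf or Tnfrsf followed by a digit. It also holds Tnf, Lta, Ltb, Ltbr, Fas, Fasl, the NF-κB subunits, their inhibitors and 4 TRAF adaptors. By role the 51 genes are 15 ligands, 22 receptors, 5 NF-κB subunits, 4 inhibitors, 4 adaptors and 1 antisense transcript, Tnfsf13os. The study asked how sub-chronic variable stress (SCVS) changes the transcripts of meningeal lymphatic endothelial cells (LECs) in female C57BL/6 mice (C57BL/6J in the study's methods) that were 3 months old. There were 5 replicates from naive mice, which received no stressor, and 5 from mice after 6 days of SCVS, in which foot shock, tail suspension and restraint alternate. Each replicate was a pool of cells from 3 to 4 meninges, sorted as CD45-CD31+podoplanin+, and no allele, transgene or drug distinguishes the groups. The digestion of both groups contained actinomycin D, which blocks transcription. The labels do not tie single animals to a replicate, so the tests measure the spread between pools.

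TNF superfamily ligands are mostly membrane proteins that act on receptors of neighboring cells. The receptors recruit TRAF adaptors or death domain proteins, which lead to a kinase complex that marks the IκB inhibitors for destruction and lets NF-κB subunits enter the nucleus. NF-κB then induces genes of adhesion and inflammation and, as a brake, its own inhibitors. In lymphatic endothelium the pathway is best known from lymph nodes, where lymphotoxin and RANK signals shape the organ.

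RefSeq promoters (build GRCm38.p6) were found for 41 of the 51 genes, and the NF-κB consensus, searched by its usual degenerate form on both strands with overlapping matches kept, occurred within the 250 bases before the start in 10 of these 41 genes (24.4%). Of all genes with a promoter in the table, 8.23% had a match in a window of the same length. The form searched was GGGRNNYYCC, with R for A or G, Y for C or T and N for any base. A match is a description of letters and not a bound site. Matches of Nfkbie, Tnfrsf8 and Tnfrsf25 are not printed. The stretches printed here, from 7 of the 10 genes, come from a ligand, a receptor, subunits, inhibitors and an adaptor. They are given 5′ to 3′ in gene orientation with every base of a match in capitals, and matches at other start sites of Nfkb2 are not shown.
Nfkbia (inhibitor), chr12:55492657-55492686, minus strand: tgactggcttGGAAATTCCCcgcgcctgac
Tnfaip3 (inhibitor), chr10:19015411-19015545, minus strand: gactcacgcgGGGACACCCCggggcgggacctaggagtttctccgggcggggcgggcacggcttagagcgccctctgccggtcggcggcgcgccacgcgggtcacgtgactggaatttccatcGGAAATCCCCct
Nfkb2 (subunit), chr19:46304688-46304736, plus strand: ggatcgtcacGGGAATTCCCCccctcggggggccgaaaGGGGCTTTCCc
Rel (subunit), chr11:23771041-23771071, minus strand: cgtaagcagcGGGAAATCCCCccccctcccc
Traf3 (adaptor), chr12:111166350-111166369, plus strand: ggcggcccgcGGGGATTTCC
Tnfrsf9 (receptor), chr4:150927946-150927976, plus strand: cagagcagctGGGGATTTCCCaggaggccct
Ltb (ligand), chr17:35194410-35194439, plus strand: aagggtgttcGGAAAGTCCCcgggcagggg
Nfkbia had more than 3 counts in all 10 replicates. The others had more than 3 counts in 8 replicates (Rel), 7 (Tnfaip3), 6 (Traf3), 5 (Nfkb2) and 3 (Tnfrsf9 and Ltb).

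Between 9984743 and 14094155 reads were counted on genes per replicate, so that 3 counts, the floor used for detection, correspond to 0.213 to 0.3005 CPM (counts scaled to a total of 1000000 per replicate). These floors take in counting error alone, since reads copied from one amplified molecule were not separated. Naive replicate 5 stood apart: its summed CPM over 5 endothelial markers (Pecam1, Cdh5, Tie1, Tek and Egfl7) was 149.8, whereas the other 9 replicates had 1699 to 4068. Lymphatic markers were uneven too, with 0 counts of Prox1 and Pdpn and 2 of Lyve1 in naive replicate 1, and the summed CPM of 7 lymphatic markers ranged from 60.8 to 2747 in naive and from 439.5 to 3074 in SCVS mice. The 8 blood endothelial markers had summed CPM of 312.8 to 10273 in naive and 5219 to 9324 in SCVS mice. In every replicate this sum was above that of the lymphatic markers, so the levels below are those of the sorted pools and not of LECs alone. The 12 myeloid markers summed to 15.8 to 883.1 CPM in naive and 150.5 to 6739 CPM in SCVS mice, the highest value being SCVS replicate 4, although CD45+ cells had been gated out. T cell markers summed to at most 27.0 CPM and B cell markers to at most 24.6 CPM in any replicate. The summed CPM of the fibroblast markers was 55.5 to 1627 in naive and 18.5 to 1516 in SCVS mice, that of the mural markers 764.9 to 7469 and 425.1 to 5914, and that of the osteoblast markers 42.0 to 443.2 and 25.4 to 364.1. Erythroid markers summed to 4863 CPM in SCVS replicate 5 and to at most 125.4 CPM elsewhere, neural and glial markers to 151.4 to 3392 CPM, with the highest value in naive replicate 5, and immediate early genes to 103.5 to 1947 CPM. The part of these differences in the results was not tested. In such pools, fewer cells of a type and less RNA per cell cannot be told apart.

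Of the 51 genes, 9 had more than 3 counts in all 10 replicates, 33 in some of them and 9 in none. The detected share differed by role. All 13 subunits, inhibitors and adaptors and 21 of the 22 receptors had more than 3 counts in at least 1 replicate, but only 7 of the 15 ligands did. The number of members with more than 3 counts was 15 in naive replicate 5, 22 to 31 in the other naive replicates and 23 to 30 in the SCVS replicates. Naive replicate 5 also had the lowest endothelial markers, and reads were counted on 14040 genes there, within the range of 13984 to 15988 of the others. Naive replicate 1 had the lowest summed lymphatic markers, 60.8 CPM, and 24 members with more than 3 counts. The cause of the low number in naive replicate 5 was not tested.

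**Figure D1:**
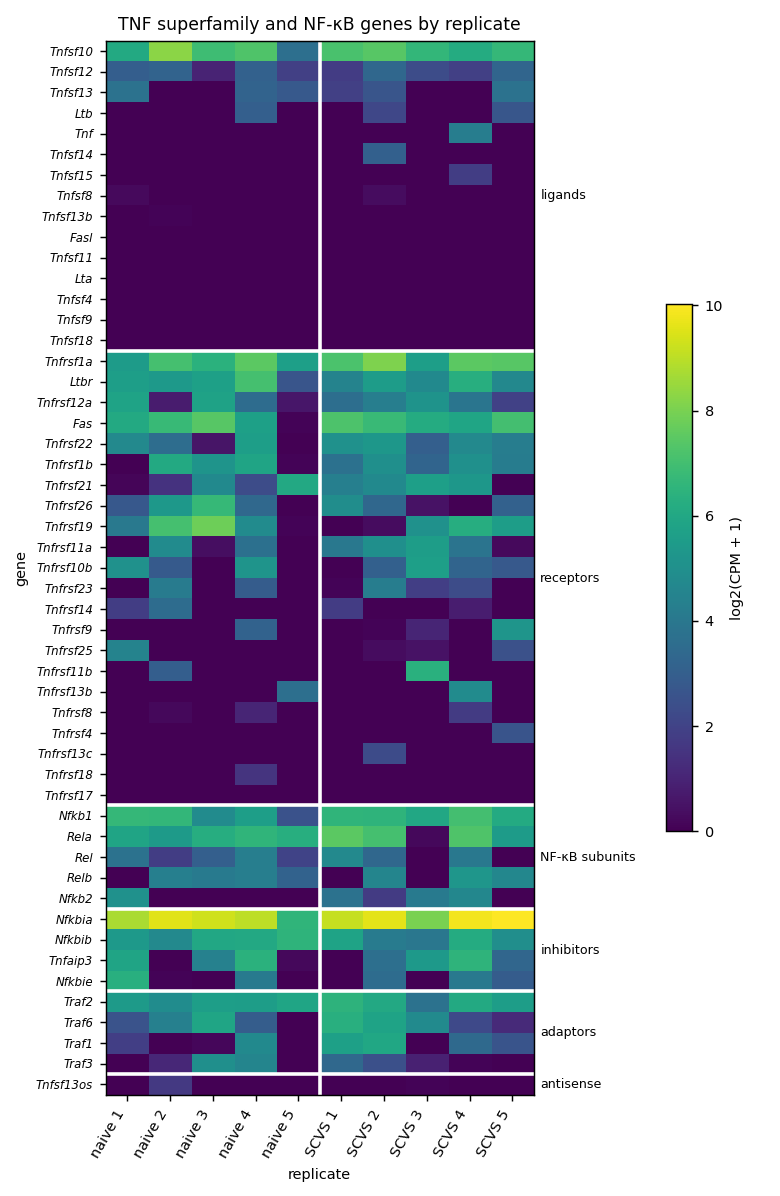
Level of each of the 51 genes (rows, grouped by role) in each replicate (columns) as log2(CPM + 1). Nfkbia is bright in all columns, the lower rows of the ligand block are dark in nearly all, and most receptors are dark in naive replicate 5.

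**Figure D2:**
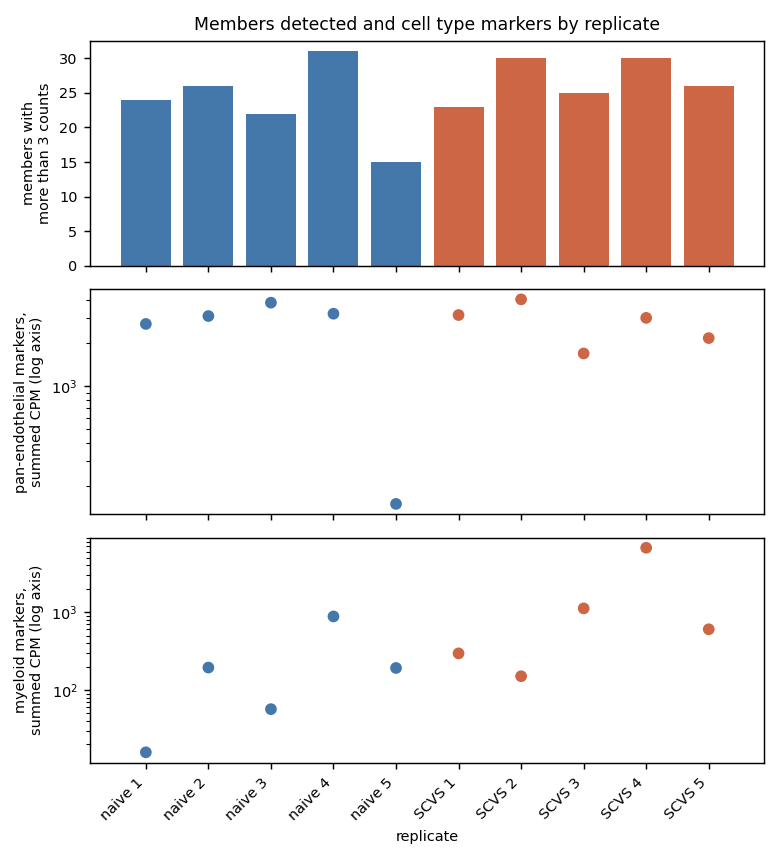
For each replicate, the number of the 51 genes with more than 3 counts (bars) and the summed CPM of the pan-endothelial and of the myeloid markers (points, log axes). Naive replicate 5 is lowest in the top and middle panels, with 15 genes and 149.8 CPM, and SCVS replicate 4 is highest for the myeloid markers.

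Among the ligands, Tnfsf10, which encodes TRAIL, a ligand of death receptors, was the one with a high level in both groups. In the order of replicates 1 to 5, kept for all genes, it had 694, 3947, 1687, 2072 and 157 counts in naive mice and 1966, 2068, 1228, 936 and 1010 counts in SCVS mice. The SCVS values thus lay inside the naive range, and the lowest value was that of naive replicate 5. The mean was 132 ± 113 CPM in naive and 116 ± 38.7 CPM in SCVS mice (SD, n = 5 per group), a log2 fold change of −0.23 with a standard error of 0.63 and a 95% interval of −1.61 to 1.15 (edgeR, Benjamini-Hochberg adjusted p = 1.0). Without naive replicate 5 the log2 fold change was −0.52, without naive replicate 2 it was 0.34, and in limma with voom it was 0.33. Tnfsf12, which encodes TWEAK, was the only other ligand above 3 counts in all 10 replicates, at a lower level. It had 73, 105, 14, 105 and 37 counts in naive and 34, 112, 49, 36 and 86 counts in SCVS mice. The means were 5.35 ± 3.25 and 5.38 ± 3.28 CPM (SD, n = 5 per group), and the log2 fold change of −0.05 had a standard error of 1.22 and was 0.10 in limma with voom. The annotation used for exon overlaps, GENCODE M1, did not hold Tnfsf12. Whether its reads could also belong to other genes was thus not checked.

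Tnfsf13 encodes APRIL, a ligand that B cells and plasma cells respond to. It had 134, 0, 0, 109 and 79 counts in naive and 39, 64, 0, 0 and 127 counts in SCVS mice, so replicates at 0 occurred in both groups. Its log2 fold change was −0.44 (standard error 2.21). In the GENCODE M1 annotation, 983 of its 1637 exon bases are shared with a gene on the same strand, BC096441, and 221 with a transcript on the opposite strand, so its reads cannot be assigned with certainty. The antisense transcript Tnfsf13os, which lies opposite Tnfsf13, had 28 counts in naive replicate 2, a single count in SCVS replicate 3 and 0 elsewhere, and Tnfsf13 itself was at 0 in both of these replicates.

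The lymphotoxin and TNF ligands lie side by side on chromosome 17. Ltb, a subunit of membrane lymphotoxin, was counted in 3 replicates, with 97 reads in naive replicate 4 and with 41 and 54 reads in SCVS replicates 2 and 5, (log2 fold change 0.27, standard error 2.47). Tnf was counted in SCVS replicate 4 alone, with 237 reads, and Lta in no replicate. SCVS replicate 4 was also the replicate with the highest summed myeloid markers, 6739 CPM against at most 1121 CPM in any other, and 10 of the 12 myeloid markers had their highest CPM there. The part of those cells in the Tnf counts was not tested. Tnfsf14, also known as LIGHT, had 90 counts in SCVS replicate 2 only, and Tnfsf15 had 34 in SCVS replicate 4 only. Tnfsf8 and Tnfsf13b had at most 3 counts. Fasl, Tnfsf4, Tnfsf9, Tnfsf11 and Tnfsf18 had 0 counts in all 10 replicates, as Lta did. By counting error alone this allows levels of up to 0.213 to 0.3005 CPM. The spread between replicates is not taken in, so higher levels are possible. Tnfsf11 encodes RANKL, the ligand of Tnfrsf11a.

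Among the receptors, Tnfrsf1a, the broadly expressed TNF receptor with a death domain, was counted in every replicate. Its counts were 459, 1702, 1167, 2465 and 661 in naive and 2045, 3249, 593, 2404 and 1700 in SCVS mice. In CPM, SCVS replicate 2 was clearly above all naive replicates, SCVS replicate 4 was level with the highest of them and SCVS replicate 3 was among the lowest. The means were 98.4 ± 58.5 and 162 ± 78.6 CPM (SD, n = 5 per group), a log2 fold change of 0.67 with a standard error of 0.50 and a 95% interval of −0.43 to 1.77. This was the smallest standard error of any member tested, and its unadjusted p of 0.207 from edgeR was the smallest among the members (Benjamini-Hochberg adjusted p = 1.0). The other TNF receptor, Tnfrsf1b, lacks a death domain and had 0, 850, 499, 770 and 1 counts in naive and 176, 372, 102, 424 and 174 counts in SCVS mice. Naive replicates 1 and 5 were thus near 0 while the other naive replicates exceeded every SCVS replicate. The mean was 31.8 ± 31.1 CPM in naive and 20.2 ± 10.7 CPM in SCVS mice (SD, n = 5 per group; log2 fold change −0.69, standard error 1.49). This direction turned to 2.11 in limma with voom, to 0.93 with a replicate block and to 0.79 as a difference of mean log2(CPM + 1). Per kilobase of exon, Tnfrsf1a was above Tnfrsf1b in 10 of 10 replicates.

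Fas, the death receptor for Fas ligand, had 707, 1357, 2367, 690 and 1 counts in naive and 2089, 1347, 881, 778 and 1288 counts in SCVS mice. Apart from the single count in naive replicate 5 the groups covered much the same range. The means were 78.9 ± 63.4 and 104 ± 37.8 CPM (SD, n = 5 per group), and the log2 fold change was 0.34 (standard error 1.00), or 0.02 when naive replicate 5 was left out and 0.84 when naive replicate 3 was. Ltbr, the lymphotoxin beta receptor, which needs membrane lymphotoxin or LIGHT as a ligand, had 502, 523, 709, 1801 and 69 counts in naive and 297, 556, 325, 1028 and 243 counts in SCVS mice. The highest and the lowest value were both in naive mice. Its log2 fold change was −0.54 (standard error 0.75), or 0.0429 without naive replicate 4. Tnfrsf12a, which encodes Fn14, the receptor of TWEAK, had 571, 9, 751, 145 and 7 counts in naive and 160, 223, 430, 185 and 28 counts in SCVS mice, with a log2 fold change of −0.63 (standard error 1.30) that ranged from −1.17 to −0.06 when single replicates were left out and was 0.97 in limma with voom. On the opposite strand, exons of Hcfc1r1 overlap 78 of its 963 exon bases.

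The TRAIL receptors were less even than their ligand. Tnfrsf10b, the death receptor for TRAIL in mice, had 336, 78, 0, 476 and 0 counts in naive and 0, 90, 603, 111 and 60 counts in SCVS mice. Per kilobase of exon it was below Tnfsf10 in 10 of 10 replicates. Tnfrsf22 and Tnfrsf23 encode decoy TRAIL receptors, and their transcripts share 1033 stretches of 31 bases, which is 25.3% of those of Tnfrsf22 and 31.8% of those of Tnfrsf23, so reads may be split between them. Neither shares such a stretch with their neighbor Tnfrsf26. Tnfrsf22 had 264, 140, 7, 650 and 0 counts in naive and 456, 465, 88, 333 and 178 counts in SCVS mice, and its SCVS values lay within the naive range. This gave a log2 fold change of 0.45 with a standard error of 1.43, or 1.30 without naive replicate 4. In GENCODE M1, 1778 of the 4287 exon bases of Tnfrsf22 are shared with another entry of the same name and strand. Reads from these bases cannot be assigned with certainty. Tnfrsf23 had more than 3 counts in 5 replicates and Tnfrsf26 in 8, the latter with 1441 counts in naive replicate 3 and at most 500 elsewhere.

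The other receptors were counted in fewer replicates or with a wide spread. Tnfrsf19, also called TROY, had 162, 1713, 3108, 373 and 1 counts in the naive group and 0, 3, 399, 1002 and 473 counts after SCVS (log2 fold change −1.34, standard error 1.70). Tnfrsf21, the death receptor DR6, had 868 counts in naive replicate 5, its highest value, and 0 in SCVS replicate 5. It was thus the highest where the endothelial markers were the lowest, and its log2 fold change of 0.42 became 1.70 without naive replicate 5. Tnfrsf11a, which encodes RANK, had 0, 352, 4, 164 and 0 counts in naive and 213, 376, 577, 176 and 2 counts in SCVS mice, with a log2 fold change of 1.41 and a standard error of 1.92. Tnfrsf11b, which encodes the soluble RANKL decoy osteoprotegerin, had 90 counts in naive replicate 2, 996 in SCVS replicate 3 and 0 elsewhere.

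Receptors known mainly from lymphocytes were rare. Tnfrsf13b, a receptor for BAFF and APRIL, had 154 counts in naive replicate 5 and 367 in SCVS replicate 4 only. Tnfrsf9, also called 4-1BB, was above 3 counts in naive replicate 4 (107 reads) and in SCVS replicates 3 and 5 (13 and 367 reads). Tnfrsf14 had more than 3 counts in 4 replicates, Tnfrsf25 in 3 and Tnfrsf8 in 2. Tnfrsf4, Tnfrsf13c and Tnfrsf18 were each above 3 counts in a single replicate, with 51, 48 and 25 counts, and Tnfrsf17 was at 0 in all.

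Of the NF-κB subunits, Rela and Nfkb1 had the highest mean CPM and were above 3 counts in the most replicates. Rela, whose protein carries a transactivation domain, had 585, 551, 1050, 1264 and 1037 counts in naive and 2543, 1623, 2, 2024 and 437 counts in SCVS mice. In CPM, SCVS replicates 1, 2 and 4 were above every naive replicate, SCVS replicate 5 was level with the lowest naive one and SCVS replicate 3 was below all. The mean was 102 ± 76.6 CPM after SCVS against 69.1 ± 19.6 CPM in naive mice (SD, n = 5 per group). The difference between these spreads was not tested. The log2 fold change was 0.50 (standard error 0.97, 95% interval −1.63 to 2.62), and it was 0.19 without SCVS replicate 1 and 0.82 without SCVS replicate 3. Nfkb1 had 1042, 1247, 381, 650 and 63 counts in naive and 1329, 1098, 774, 1708 and 687 counts in SCVS mice. The means were 55.5 ± 42.4 and 89.0 ± 26.1 CPM (SD, n = 5 per group), and the log2 fold change was 0.64 (standard error 0.67), or 0.34 when naive replicate 5 was left out and 1.00 when naive replicate 1 was.

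The other subunits were at 0 in some replicates. Rel, the subunit best known from lymphocytes, had 131, 32, 100, 248 and 41 counts in naive and 355, 112, 0, 200 and 0 counts in SCVS mice. Relb had 0, 244, 226, 255 and 105 counts in naive and 0, 274, 0, 499 and 240 counts in SCVS mice. Nfkb2, the partner of Relb in the non-canonical pathway that Ltbr can start, had 340 counts in naive replicate 1 and 0 in the other naive replicates, against 178, 29, 197, 320 and 0 in SCVS mice. Its log2 fold change of 0.69 had a standard error of 2.47, and without naive replicate 1 it was 10.2, a value fitted against naive replicates that were all at 0. The log2 fold changes of Rel and Relb were 0.12 and 0.42, with standard errors of 1.77 and 1.92. All 5 subunits had a log2 fold change above 0, with a median of 0.50 against −0.03 over all tested genes. None exceeded its standard error, and 3 of the 5, Rela, Rel and Relb, changed sign in limma with voom, to −0.91, −2.17 and −1.44.

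Nfkbia, which encodes IκBα, the inhibitor that NF-κB itself induces, had the highest level per kilobase of exon of all members in 10 of 10 replicates. It had 4436, 9630, 8740, 7054 and 1240 counts in naive and 8037, 9585, 3193, 12018 and 10376 counts in SCVS mice. SCVS replicates 2, 4 and 5 exceeded every naive replicate in CPM, and naive replicate 5 was the lowest of the 10. The means were 484 ± 250 and 713 ± 307 CPM (SD, n = 5 per group). The log2 fold change was 0.52 with a standard error of 0.50 and a 95% interval of −0.58 to 1.62 (edgeR, Benjamini-Hochberg adjusted p = 1.0), and it was 0.26 without naive replicate 5. Nfkbib, a second IκB protein, had 433, 325, 884, 874 and 1224 counts in naive and 771, 207, 180, 933 and 300 counts in SCVS mice. In contrast to Nfkbia it was highest in naive replicate 5. Its mean was 57.3 ± 25.2 CPM in naive and 37.4 ± 24.4 CPM in SCVS mice (SD, n = 5 per group; log2 fold change −0.65, standard error 0.62), and 42 of its 2169 exon bases overlap exons of Sirt2 on the opposite strand.

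The other inhibitors were patchy. Tnfaip3, a ubiquitin-editing enzyme that ends TNF signaling, had 593, 0, 279, 1142 and 2 counts in naive and 0, 143, 500, 1213 and 90 counts in SCVS mice, with similar means of 32.2 ± 37.2 and 30.6 ± 37.4 CPM (SD, n = 5 per group). Its log2 fold change was −0.07 with a standard error of 1.80, and it was 1.88 with a replicate block. Nfkbie had 822, 1, 0, 217 and 0 counts in naive and 0, 129, 0, 209 and 65 counts in SCVS mice, so that its log2 fold change of −1.63 (standard error 2.40) rested on naive replicate 1, and without that replicate it was 0.70.

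Of the adaptors, Traf2, which couples both TNF receptors to NF-κB, was the most even. It had 453, 360, 676, 639 and 771 counts in naive and 1254, 787, 156, 898 and 461 counts in SCVS mice. The means were 45.0 ± 10.8 and 56.1 ± 28.6 CPM (SD, n = 5 per group), with a log2 fold change of 0.25 (standard error 0.55, 95% interval −0.96 to 1.46), or 0.03 without SCVS replicate 1. Naive replicate 5, low for most members, had the highest naive value of Traf2. Traf6, which serves RANK and some interleukin receptors, had 51, 252, 809, 93 and 0 counts in naive and 1122, 664, 327, 48 and 13 counts in SCVS mice (log2 fold change 0.80, standard error 1.49). Single replicates weighed on this value, which was 0.16 without SCVS replicate 1 and 2.01 without naive replicate 3. Traf1, an adaptor induced by NF-κB, had 27, 0, 2, 358 and 0 counts in naive and 708, 746, 0, 128 and 51 counts in SCVS mice. Its log2 fold change of 2.03 had a standard error of 2.16 (95% interval −2.69 to 6.76), and it was 5.03 without naive replicate 4, which held most of the naive counts. Traf3, which restrains the non-canonical pathway, had 0, 15, 436, 309 and 0 counts in naive and 132, 55, 11, 1 and 0 counts in SCVS mice, with a log2 fold change of −1.98 and a standard error of 2.25, or −1.06 without naive replicate 3 and −3.13 without SCVS replicate 1.

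**Figure D3:**
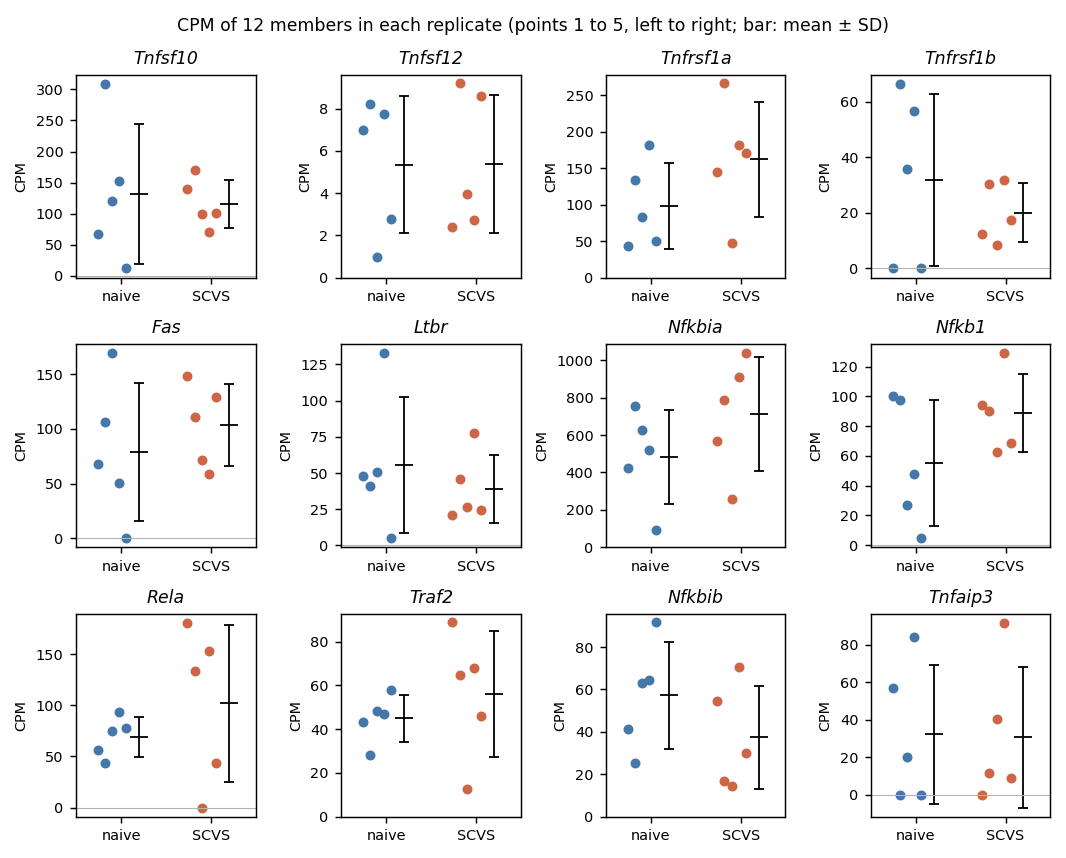
CPM of 12 of the genes in the 5 naive and 5 SCVS replicates (points, replicates 1 to 5 from left to right within each group), with the mean and SD beside them. The ranges of the groups overlap in every panel, and naive replicate 5 is near 0 for Fas and Tnfrsf1b.

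Levels of different genes were compared per kilobase of exon, with the exon lengths of GENCODE M1, which held 30 of the 31 tested members. Nfkbia came first with 379 ± 184 CPM per kilobase (SD, n = 10). Fas with 50.7 ± 28.3, Tnfrsf1a with 50.2 ± 28.3 and Rela with 31.5 ± 20.4 followed. Fas was above Tnfrsf1a in 6 of 10 replicates, so their order did not exceed the spread. Next came Tnfsf10, Nfkbib, Tnfrsf12a and Ltbr, with means of 20.1 to 23.6 CPM per kilobase, where each gene was above the next in only 4 to 6 of 10 replicates. Within roles the order varied from pair to pair. Rela was above Nfkb1 in 7 of 10 replicates and Tnfrsf1a above Ltbr in 9 of 10. Rela was above Rel and Relb in all 9 replicates that could rank them, since the 3 genes had at most 2 counts in SCVS replicate 3. Nfkbia was above Rela, Nfkbib and Tnfaip3 in 10 of 10 replicates each, Nfkb1 above Nfkb2 in 10 of 10, and Traf2 above Traf1 and Traf3 in 10 of 10 and above Traf6 in 9 of 10.

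**Figure D4:**
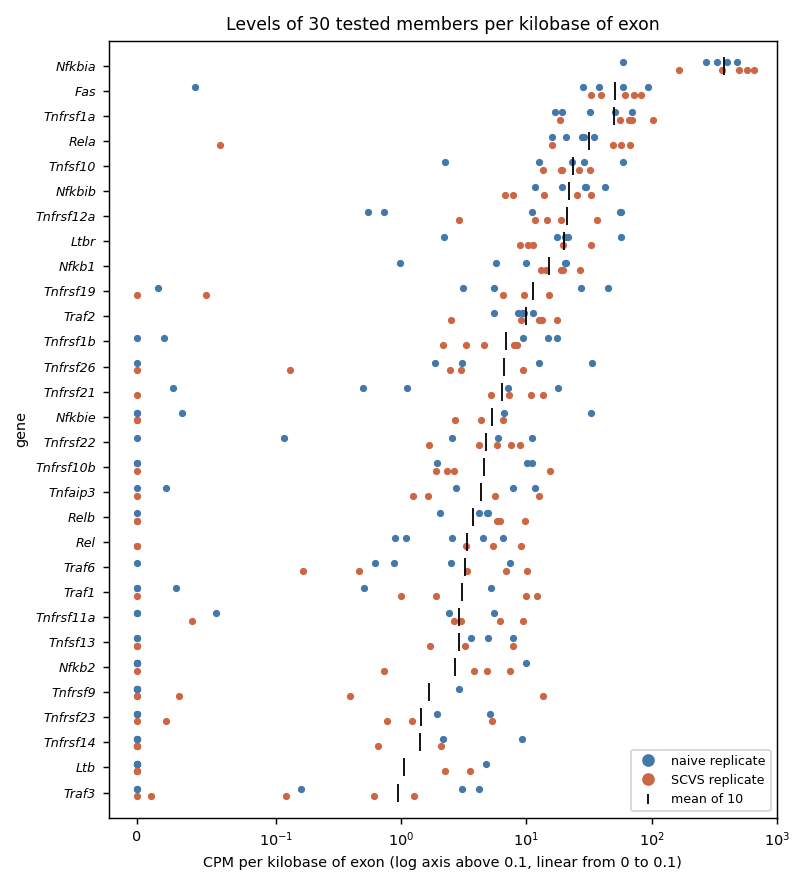
CPM per kilobase of exon of 30 tested genes in each naive and SCVS replicate (points) with the mean of all 10 (vertical ticks), on an axis that is logarithmic above 0.1 and linear below. Nfkbia, with a mean of 379, lies farthest to the right, and most genes in the lower rows have replicates at 0.

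The comparison of SCVS with naive mice was tested with edgeR over all 14815 genes that had more than 5 counts in at least 3 replicates, and 31 of the 51 members passed this filter: 4 ligands, 14 receptors and all subunits, inhibitors and adaptors. By edgeR's quasi-likelihood test no member passed a Benjamini-Hochberg adjusted p of 0.1, and 0% of all tested genes did. At an unadjusted p under 0.05 there were 0 of 31 members, against 3.1% of all tested genes. DESeq2 called 0 members at either threshold, against 0.769% and 4.46% of all tested genes, and limma with voom called 0, against 0.0135% and 4.97%. The likelihood ratio test of edgeR called 0, against 0.256% and 3.61%, and the quasi-likelihood fit without naive replicate 5 called 0, against 0% and 4.24%. No member had groups that did not overlap in CPM, which held for 0.628% of tested genes. Of the 31 members, 16 had a log2 fold change above 0 and 15 below, with a median of 0.12 against −0.03 over all tested genes. Without naive replicate 5 the numbers were 14 and 17 and the median was −0.09. The members' median also depended on the model: it was 0.66 in limma with voom, 0.77 with a replicate block and 0.36 as a difference of mean log2(CPM + 1), against 0.10, 0.07 and 0.08 over all tested genes.

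By role, 1 of 4 ligands, 6 of 14 receptors, 5 of 5 subunits, 1 of 4 inhibitors and 3 of 4 adaptors had a log2 fold change above 0. Only Tnfrsf1a, Nfkbia and Nfkbib, 3 of the 31, had a log2 fold change larger than its standard error in this fit. Standard errors ran from 0.50 to 2.80 with a median of 1.70, so that for a typical member a change of several fold in either direction was not detectable, and the lack of calls does not show that the genes were alike in both groups. Among the tested members, 16 of 31 (51.6%) went from 0 counts in a naive replicate to 100 or more in a different one, and 14 (45.2%) showed such a gap within the SCVS group, against 34.8% and 32.5% of all tested genes.

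**Figure D5:**
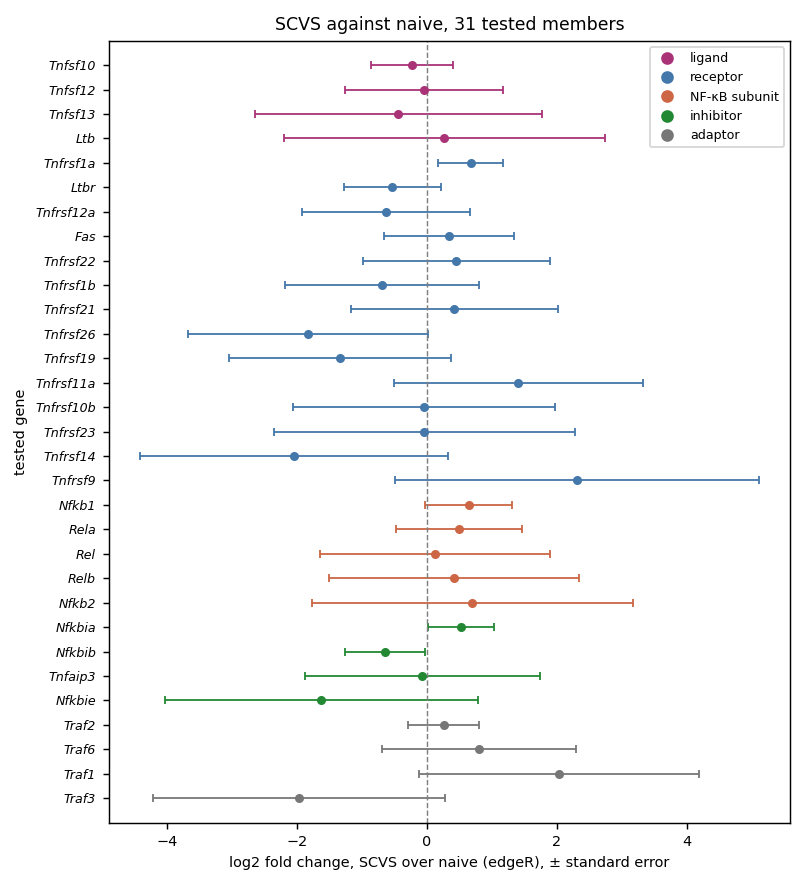
Log2 fold change of SCVS over naive mice with its standard error for the 31 tested members, colored by role (edgeR). Values lie on both sides of 0, and the bars of Tnfrsf1a, Nfkbia and Nfkbib are the ones that do not reach it.

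Genes of the pathway that the symbol rule leaves out gave no call either. Of 9 superfamily members with other symbols, 3 were tested, all with a log2 fold change above 0 and a median of 2.88, and none passed the threshold in edgeR's quasi-likelihood test. Cd40, a receptor of B cells, macrophages and endothelium, had 137 counts in naive replicate 4 and at most 1 in the other naive replicates, and 0, 672, 672, 1342 and 31 counts in SCVS mice. Its log2 fold change was 4.40 with a standard error of 2.39 (edgeR, Benjamini-Hochberg adjusted p = 1.0). The highest value was in SCVS replicate 4, where the myeloid markers were also highest, and without that replicate the log2 fold change was 3.75. That fit keeps SCVS replicate 3, which had the next highest summed myeloid markers, 1121 CPM. The part of myeloid cells in the Cd40 counts was not tested. Of 28 signaling genes between receptor and NF-κB, 27 were tested, 19 with a log2 fold change above 0 and a median of 0.22.

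By edgeR's quasi-likelihood test, 1 of 27 tested signaling genes had an unadjusted p under 0.05, against 3.1% of all tested genes. This was Chuk, which encodes the kinase IKKα. It had 2289, 2126, 483, 1259 and 2888 counts in naive and 978, 1135, 599, 1077 and 303 counts in SCVS mice, with means of 146 ± 80.8 and 64.6 ± 25.3 CPM (SD, n = 5 per group). In CPM, naive replicates 3 and 4 lay inside the SCVS range. The log2 fold change of −1.25 had a standard error of 0.52 (unadjusted p = 0.0346, edgeR, Benjamini-Hochberg adjusted p = 1.0). Birc3, an NF-κB-induced inhibitor of apoptosis that acts with TRAF2, had 6 to 402 counts in naive mice and 1090, 4, 846, 692 and 484 in SCVS mice, a log2 fold change of 2.01 with a standard error of 1.28.

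Of 23 known endothelial target genes of NF-κB, 16 were tested, 8 with a log2 fold change above 0 and 8 below, with a median of −0.04. Il6 had 9 counts in naive replicate 4, 61 and 691 in SCVS replicates 2 and 5 and 0 elsewhere (log2 fold change 6.73, standard error 3.17; edgeR, Benjamini-Hochberg adjusted p = 1.0). Vcam1, an adhesion molecule for leukocytes, had 3344, 1911, 3339, 3277 and 2 counts in naive and 1000, 296, 587, 1089 and 413 counts in SCVS mice. The 4 naive replicates other than replicate 5, the one with few endothelial transcripts, were above every SCVS replicate. Without naive replicate 5 the groups did not overlap in CPM for 1.37% of tested genes, and with all replicates for 0.628%. The log2 fold change of Vcam1 was −1.86 (standard error 1.04), or −2.19 when naive replicate 5 was left out. With all replicates edgeR gave it a Benjamini-Hochberg adjusted p of 1.0.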

How the data were processed

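The authors sorted cells gated as LECs, amplified their RNA with a whole-transcriptome kit and sequenced paired-end reads. They filtered the reads, aligned them with HISAT2 2.0.1 and deposited raw counts per gene and replicate, with no normalization. The paper's methods name mm9 as the genome. The submitters' processing notes name GRCm38, cutadapt 1.9.1 and HTSeq 0.6.1. The annotation and the use of strand are not given in the sources used here, and 58.8% of the table's gene identifiers are in GENCODE M1 (mm9), so no gene coordinates are given apart from those of RefSeq promoters (GRCm38.p6). No molecular identifiers are named, so copies of one molecule were counted as separate reads. GENCODE M1 held 50 of the 51 members and supplied exon lengths, overlaps and shared sequence.

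The test covered each gene that exceeded 5 counts in 3 or more of the 10 replicates and was made with edgeR 4.0.16 in R 4.3.3 (quasi-likelihood test, TMM, groups only, Benjamini-Hochberg adjustment over all tested genes, threshold 0.1 as in the paper). The standard error is the absolute log2 fold change divided by the square root of F. CPM use the total count. Alternatives were DESeq2 1.42.0, limma 3.58.1 with voom, edgeR's likelihood ratio test, an exact permutation test, other scalings and filters, a replicate block, the number of detected genes as covariate and leaving out each replicate. Tests were run on simulated data in which all genes had the same spread and the planted changes were large. With a small spread between replicates the model-based tests recovered the changed genes. With a spread near that of these replicates edgeR's quasi-likelihood test recovered none at the adjusted threshold. The lack of adjusted calls is therefore weak evidence. DESeq2 also called many unchanged genes there, but it was run without its default outlier and low-count filters. The default DESeq2 fit reported above was not run on simulated data. Leaving out naive replicate 5 or SCVS replicate 4 from the counts of detected and of non-overlapping members was added after seeing the data.

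The members, pathway lists and marker lists were chosen with earlier results of these data known. Values of every replicate are given for all subunits, inhibitors and adaptors, for the 4 ligands and 6 receptors with more than 3 counts in the most replicates, and for any member past a threshold, of which there was none. Further members with such values were chosen after they were seen. Of each other pathway list, the gene with the smallest p in each direction is named. Python 3.11.15 with Matplotlib 3.10.9 was used for the rest. The paper's other experiments and its enrichment analysis were not used here.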

Additional observations from a re-analysis of the deposited data

Results flagged for a closer look

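In 46 groups of 5 replicates (23 genes, naive and SCVS), the gap between the most extreme replicate and its neighbor, as a share of the group's range in log2(CPM + 1), was compared with Dixon's critical value of 0.71. This value was passed in 6 groups. For normally distributed values chance flags about 1 in 20 groups, but these values hold many zeros. A single replicate above 0 among replicates at 0 gives 1.000 whatever its count. The number of flags is therefore not compared with that rate. Of these, 2 were low values in naive replicate 5, the replicate with few endothelial transcripts: Fas with 1 count (0.765) and Nfkbia with 1240 counts (0.726). Rela was low in SCVS replicate 3 with 2 counts (0.723), and Relb was low in naive replicate 1 with 0 counts (0.728). The other flags were single high replicates among naive replicates at 0: Ltb in naive replicate 4 with 97 counts (1.000) and Nfkb2 in naive replicate 1 with 340 counts (1.000).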

How the results depend on the processing

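No member passed an adjusted p of 0.1 in any of 21 alternatives. The exact permutation test is not counted among them, since its smallest two-sided p of 0.00794 could not pass after adjustment here. The smallest adjusted p of the 31 tested members in any alternative was 0.518 (Tnfrsf1a). The number at an unadjusted p under 0.05 was 0 except with no filter, where it was 6 (Tnf, Tnfsf14, Tnfsf15, Tnfrsf4, Tnfrsf13c and Tnfrsf18, each above 3 counts in a single replicate), against 16.8% of all genes, and when replicates were left out in turn, where it ranged from 0 to 1 (Nfkb2 without naive replicate 1). The numbers of detected and of non-overlapping members moved by less than 1.5 times. Replicates that share a number come from separate groups of mice, and their deviations correlated by −0.009 to 0.133. For 4 of 5 naive replicates the best match was the SCVS replicate of the same number, a hint from the data and not from the design. With the replicate block, 0 members were called. The share of all tested genes called is not given for this fit, nor for leaving out replicates other than naive replicate 5. These counts of members can therefore not be set against such a share.

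For the 23 genes with full values, log2 fold changes changed sign as follows, with no call at an adjusted p of 0.1, and the cause was not tested. In limma with voom they were 0.33 for Tnfsf10, 0.10 for Tnfsf12, 0.97 for Tnfrsf12a, 2.11 for Tnfrsf1b, −0.91 for Rela, −2.17 for Rel, −1.44 for Relb, 0.73 for Tnfaip3 and 0.50 for Nfkbie. As differences of mean log2(CPM + 1) in the exact permutation test they were 0.36 for Tnfsf10, 0.0691 for Tnfsf12, 0.48 for Tnfrsf12a, 0.79 for Tnfrsf1b, −0.57 for Rela, −0.56 for Rel, −0.28 for Relb and 0.41 for Tnfaip3. With the replicate block they were 0.23 for Tnfsf10, 0.0902 for Tnfsf12, 0.77 for Tnfrsf12a, 0.93 for Tnfrsf1b, −0.0438 for Rela, −1.51 for Rel, −0.12 for Relb, 1.88 for Tnfaip3 and 2.23 for Nfkbie. With a covariate for how many genes each replicate had they were −2.76 for Ltb, 0.40 for Tnfrsf12a and −5.60 for Relb, and without scaling beyond the total count Tnfsf12 was at 0.0132. With single replicates left out, signs changed within ranges of −0.0526 to 0.60 for Ltb, −0.98 to 0.0429 for Ltbr, −2.31 to 0.70 for Nfkbie, −0.59 to 0.55 for Rel, −0.16 to 0.74 for Relb, −1.08 to 0.62 for Tnfaip3, −0.52 to 0.34 for Tnfsf10, −0.31 to 0.15 for Tnfsf12 and −1.57 to 0.23 for Tnfsf13. Of the other tested members, Tnfrsf23 (−1.43 to 1.498 over all alternatives) and Tnfrsf10b (−1.49 to 1.13) changed sign too.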
